A study of Mus musculus with 6 samples.

Results

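Fibroblast growth factor (FGF) signaling was described in sorted mouse corneal keratocytes through 43 genes, picked by symbol from the 17606 genes of the deposited expression table. The set took every row named as an FGF ligand, FGF-binding protein, FGF receptor, Sprouty, Spred or Dusp4 to Dusp7 gene, together with Frs2, Frs3, Gab1, Gab2, Grb2, Etv1, Etv4, Etv5 and Il17rd. It comprised 16 ligands, 2 binding proteins, 4 receptors, 1 decoy receptor, 5 adaptors, 3 transcription factors and 12 feedback regulators. Fold changes were computed for the 33 genes with at least 10 counts in at least 3 libraries, and the other 10 are given by their counts.

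Keratocytes are the resident mesenchymal cells of the corneal stroma, and here they were sorted by flow cytometry for bulk RNA-seq. Each group had 3 libraries. The Ptch1-ablated libraries came from Prrx1-CreERT mice with floxed Ptch1 (Prrx1-creERT;Ptch1 in the sample labels), and the control libraries came from mice labelled only as ctrl, so whether the controls carried the Cre allele is not given in the sources used here. Both groups were given as 10 weeks old, received 3 doses of tamoxifen and were sampled after 1 month. Whether the age of 10 weeks was that at tamoxifen or at sampling was not settled here. Ptch1 is the receptor that restrains Hedgehog signaling, so the question for these genes was how expression of the FGF pathway differed when Ptch1 had been targeted in keratocytes. Prrx1-CreERT is a knock-in stromal driver that, per the study, also recombines in corneal endothelial cells. Whether a library held cells of a single mouse or of pooled mice is not given in the sources used here, so the p-values below measure the spread between these samples, which may be partly technical.

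FGF ligands bind receptor tyrosine kinases together with heparan sulfate, and the activated receptor phosphorylates the docking protein Frs2, which recruits Grb2, the phosphatase Shp2 and Gab adaptors. Signal then passes through RAS, RAF and MEK to ERK and, through Gab1, to PI3 kinase. ERK induces the Etv transcription factors as well as its own inhibitors, among them Sprouty and Spred proteins, the phosphatase Dusp6 and the membrane protein Il17rd, also called Sef. In the cornea, stromal ligands such as Fgf7 and Fgf10 are known to act on the overlying epithelium.

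Promoter sequences are shown for the genes whose change carries the results below and whose start site was in the RefSeq promoter table of build GRCm38.p6, in which 34 of the 43 genes matched by symbol. Each is the 250 bases before the annotated start, written 5′ to 3′ on the strand of the gene. These are chr8:80880520-80880769 (minus strand) for Gab1, chr3:37639697-37639946 (plus strand) for Spry1, chr13:55152568-55152817 (plus strand) for Fgfr4, chr7:45615491-45615740 (minus strand) for Fgf21 and chr5:108693979-108694228 (plus strand) for Fgfrl1. Gab1 had 2 start sites in the table, of which the first is shown. Capitals mark exact matches, on either strand, to the E-box CACGTG and to the ETS motif CCGGAAGT, the kind of site that Etv factors bind.
Gab1: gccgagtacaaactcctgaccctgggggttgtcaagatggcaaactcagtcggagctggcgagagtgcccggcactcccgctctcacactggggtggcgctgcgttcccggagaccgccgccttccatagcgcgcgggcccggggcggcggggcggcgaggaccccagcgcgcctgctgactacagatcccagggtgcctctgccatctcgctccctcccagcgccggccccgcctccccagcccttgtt
Spry1: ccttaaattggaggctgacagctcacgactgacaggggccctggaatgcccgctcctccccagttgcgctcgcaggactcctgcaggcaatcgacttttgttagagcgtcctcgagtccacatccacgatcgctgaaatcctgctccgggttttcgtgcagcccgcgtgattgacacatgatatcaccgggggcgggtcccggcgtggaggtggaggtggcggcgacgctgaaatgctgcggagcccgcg
Fgfr4: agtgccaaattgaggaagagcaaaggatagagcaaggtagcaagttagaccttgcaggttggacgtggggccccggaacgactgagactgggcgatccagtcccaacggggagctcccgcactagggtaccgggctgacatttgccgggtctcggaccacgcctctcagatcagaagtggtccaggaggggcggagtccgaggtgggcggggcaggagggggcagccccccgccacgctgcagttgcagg
Fgf21: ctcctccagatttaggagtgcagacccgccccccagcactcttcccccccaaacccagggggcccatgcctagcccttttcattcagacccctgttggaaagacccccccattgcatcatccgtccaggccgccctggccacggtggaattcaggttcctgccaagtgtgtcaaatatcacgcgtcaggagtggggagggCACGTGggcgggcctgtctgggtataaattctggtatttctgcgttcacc
Fgfrl1: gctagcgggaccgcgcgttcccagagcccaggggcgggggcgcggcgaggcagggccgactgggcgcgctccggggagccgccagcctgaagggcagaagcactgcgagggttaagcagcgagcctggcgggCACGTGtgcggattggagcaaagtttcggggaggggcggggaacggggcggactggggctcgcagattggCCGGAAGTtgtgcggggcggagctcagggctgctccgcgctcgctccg
The Fgf21 promoter held the E-box 50 bases before the start, and the Fgfrl1 promoter held it 118 bases before the start together with the ETS motif 48 bases before it. None of the searched motifs was in the shown Gab1, Spry1 or Fgfr4 sequence. Over the full 300-base windows, which run to 50 bases past the start, the E-box was in 3 of the 34 matched genes (Fgf21, Fgfr2 and Fgfrl1) and in 7.15% of all 32851 windows of the table. The ETS motif was in 2 of the 34 (Fgfrl1 and Frs2) and in 3.89% of all windows. The GLI motif GACCACCCA, the CRE TGACGTCA and the AP-1 motif TGAGTCA were in none of the 34, and in 0.253%, 1.79% and 5.20% of all windows, respectively. A match is a string in the sequence and not a measured binding site. The E-box and ETS matches shown do not overlap.

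Counts were RSEM expected counts, and library totals ran from 20258439 to 24788063 counts, and 3 counts, the upper limit behind a count of 0, corresponded to 0.121 to 0.148 CPM (counting error only). The targeted gene Ptch1 gave counts of 104 to 369 in control keratocytes and of 4348 to 6230 in ablated keratocytes, a gene total that does not resolve the deleted exons, and the Hedgehog target Gli1 had 1 to 36 against 3022 to 3098. The second principal component of log2 CPM, which held 22.2% of the variance, separated control replicate 1 and ablated replicate 2 from the remaining libraries, so counts of changed genes are given below with and without both of them. Here CPM is the count per 1000000 counts of the library, TMM-scaled in what follows, which compares libraries for 1 gene, and TPM is the authors' estimate of transcripts on a common total, a length-corrected level that also compares genes. Values of single libraries are listed in the order of replicates 1 to 3. Levels are the mean ± SD of the 3 libraries of a group and log2 fold changes, Ptch1-ablated over control, carry ± SE. Adjusted p-values are from edgeR's quasi-likelihood test, adjusted by the Benjamini-Hochberg method over the 13888 genes tested.

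The keratocyte genes Kera and Lum, small leucine-rich proteoglycans of the stroma, were among the abundant transcripts of every library. Kera was at 14566 to 17140 TPM in controls and at 5006 to 7107 TPM in ablated libraries (log2 fold change -1.59 ± 0.13, adjusted p = 1.08e-05, edgeR). Lum was at 11215 to 14201 TPM against 12429 to 15270 TPM (-0.07 ± 0.12, adjusted p = 0.812). Markers of several cell types differed between the groups and accompany every result below. The summed TPM of 8 keratocyte markers ran from 102928 to 118712 in controls against 79925 to 95958 in ablated libraries, with 5 of 7 tested markers lower, and Ptgds had 0 to 39 counts. Dcn and Aldh3a1 were the largest terms of these sums, so they understate the fall of Kera and of Tkt and Aldh1a1 (log2 fold change -1.73 and -1.74). Lum and Dcn did not pass the adjusted p. For 9 vascular endothelium markers the sums were 644 to 758 against 1078 to 1249 TPM (6 of 9 higher), and for 9 mural cell markers 481 to 546 against 925 to 986 TPM (4 of 9 higher), with no marker of either list at 0 in all libraries. Large terms were Eng (307 to 343 against 450 to 605 TPM), Rgs5 (117 to 125 against 235 to 274 TPM) and Acta2 (76.3 to 89.2 against 239 to 267 TPM). Besides Eng, the vascular markers past the adjusted p were Tie1, Cdh5, Esam, Emcn and Pecam1 (log2 fold change 2.10, 1.43, 1.24, 1.14 and 0.88). The largest mural term, Pdgfrb, had a log2 fold change of 0.11 ± 0.13 (adjusted p = 0.735, edgeR). The study uses Eng (as Cd105) and Acta2 as mesenchymal stem cell and fibroblast markers of these keratocytes. The vascular marker Kdr had a negative log2 fold change (-0.40 ± 0.14, adjusted p = 0.112, edgeR). Sums were 139 to 160 against 211 to 239 TPM for Schwann cell markers (2 of 8 tested higher), 1618 to 1853 against 1550 to 1983 TPM for leukocyte markers (1 of 9 tested higher), 7.17 to 12.8 against 9.09 to 9.95 TPM for melanocyte markers (0 of 4 tested past the threshold, with Dct and Mlana at 0 in most libraries) and 859 to 913 against 847 to 1070 TPM for corneal endothelium markers (2 of 8 higher and 1 lower). Corneal epithelium markers summed to 71.0 to 97.8 TPM in controls against 7.70 to 14.5 TPM in ablated libraries (3 of 9 tested lower and 1 higher). Krt5 and Krt15, keratins of basal epithelium, were at 0 in ablated replicates 2 and 3, whereas Krt12, the keratin of differentiated corneal epithelium, was at 0 in the 3 control libraries and had 21 to 52 counts in the ablated ones. The part of these cell types in the differences below was not tested, and in bulk samples fewer cells of a type and less RNA per cell cannot be told apart.

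The FGF genes did not move in a single direction. Transcripts of the docking proteins Gab1 and Gab2 and of the feedback inhibitor Spry1 rose in Ptch1-ablated keratocytes, while those of the ligand Fgf21, the receptor Fgfr4 and the decoy receptor Fgfrl1 fell. A gene was called when its adjusted p did not exceed 0.05 and it changed 2-fold or more, as the study's methods set it. For its keratocyte gene list, the study's results instead give a p under 0.05 and a fold above 2, naming no adjustment. By that call 3 of the 33 genes were higher and 3 lower, beside 3.36% and 2.13% of all genes tested. Without the fold minimum, Dusp6 joined the genes that rose. That made 7 of 33 genes (21.2%) past the adjusted p, against 8.48% of all genes tested, with backgrounds of 4.68% for higher and 3.80% for lower genes. An unadjusted p under 0.05 was reached by 14 of the 33, beside 20.6% of all genes tested. CPM values of the groups did not overlap for 16 of the 33 genes (48.5%), 8 higher and 8 lower, beside 27.4% of all genes tested. The median log2 fold change was 0.23 over the 33 genes, with 17 above and 16 below 0, and 0.0046 over all genes tested. Over the same 33 genes it fell to 0.040 without ablated replicate 2, the lowest value of the alternatives. With control replicate 1 and ablated replicate 2 both left out, 3 of the 33 were called higher and 3 lower.

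**Figure D1:**
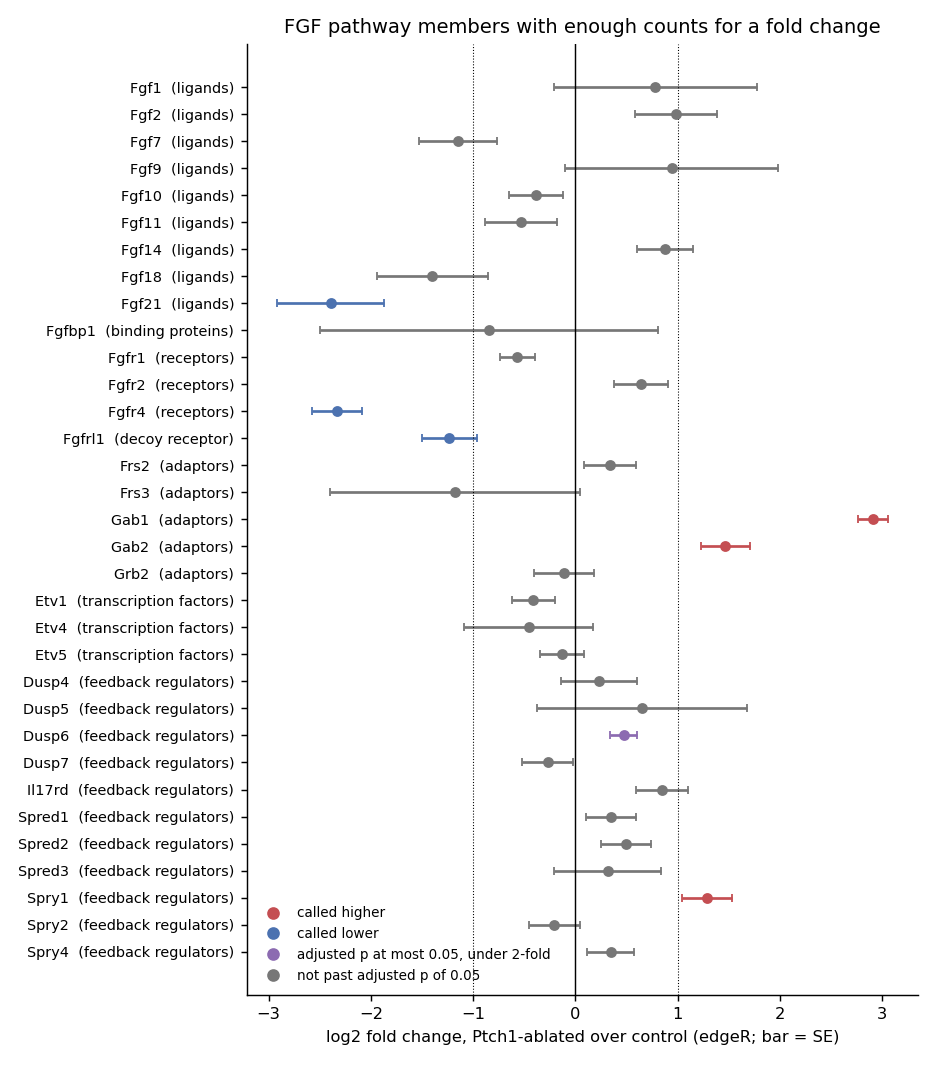
Log2 fold change of the 33 FGF pathway genes that had enough counts, as Ptch1-ablated over control (x axis, edgeR estimate, points, with bars of 1 SE), ordered by role on the y axis and coloured by call; dotted lines mark a 2-fold change. Gab1 lies far to the right at 2.91, Fgf21 and Fgfr4 lie near -2.4 and -2.3, and the points of the 3 Etv factors and of the feedback regulators other than Spry1 lie within the dotted lines.

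Among the ligands, Fgf21 was the one that passed the test. Fgf21 (Entrez 56636) encodes an endocrine FGF best known from liver and metabolism. It gave counts of 236, 394 and 472 in control keratocytes and of 26, 108 and 105 in ablated keratocytes. Every ablated library lay below every control library, and ablated replicate 1 was the lowest. Fgf21 fell from 17.4 ± 5.70 to 3.31 ± 1.91 CPM (log2 fold change -2.39 ± 0.52, edgeR adjusted p = 0.0129). The call was lost without control replicate 2 (log2 fold change -2.25, adjusted p = 0.0585). FGF21 signals through an FGF receptor paired with beta-Klotho, and the gene of that co-receptor, Klb, gave counts of 0, 0 and 6 in control keratocytes and of 6.03, 30.01 and 12 in ablated keratocytes. These counts were too few for a test.

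In TPM, Fgf21 was the most abundant ligand transcript of the control keratocytes at 48.8 ± 16.4 TPM, above Fgf10 (14.1 ± 3.55), Fgf7 (11.5 ± 4.47) and Fgf18 (11.2 ± 0.22). The spreads of the last 3 overlapped one another. In the ablated libraries Fgf10 (12.5 ± 2.07), Fgf21 (10.8 ± 6.45) and Fgf14 (9.81 ± 2.81) led and did not differ beyond their spread. The share of Fgf21 in the summed TPM of all 16 ligands was 36.8%, 51.2% and 48.4% in controls against 6.80%, 21.2% and 20.1% in ablated libraries. The summed ligand level was 105 ± 21.3 TPM in the controls and 63.8 ± 11.4 in the ablated libraries (exact permutation test, two-sided, p = 0.1, the smallest that 3 against 3 libraries allow). Without Fgf21 the sums were 56.3 ± 6.05 and 53.0 ± 5.25 TPM (exact p = 0.6). Fgf21 thus held most of the difference in summed ligand TPM, and the remaining ligands together differed by less than their spread. The sum without Fgf21 also includes the intracellular homologues Fgf11, Fgf13 and Fgf14, of which Fgf14 went from 4.09 ± 0.61 to 9.81 ± 2.81 TPM. With these homologues left out and Fgf21 kept, the ligand sums were 93.8 ± 19.8 TPM in controls and 48.2 ± 10.6 in ablated libraries (exact p = 0.1). A sum without both the homologues and Fgf21 was not compared.

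None of the other ligands with enough counts passed the adjusted p. Fgf7, the keratinocyte growth factor, gave counts of 187 to 451 in control keratocytes and of 115 to 172 in ablated keratocytes (log2 fold change -1.14 ± 0.38, adjusted p = 0.0965, edgeR). Fgf18, a growth factor of cartilage and bone, had 145 to 165 against 38 to 101 counts (-1.40 ± 0.54, adjusted p = 0.160). Groups of both genes did not overlap in CPM. The related Fgf10 had a smaller difference with overlapping groups (log2 fold change -0.39 ± 0.26, adjusted p = 0.465). Its 95% interval ran from -0.96 to 0.19.

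Fgf2, the basic FGF that lacks a classical secretion signal, gave counts of 140 to 262 in control keratocytes and of 252 to 541 in ablated keratocytes (log2 fold change 0.98 ± 0.40, adjusted p = 0.180), and the groups overlapped. Fgf1, the acidic FGF, and Fgf9 had no settled direction, at 0.78 ± 0.99 and 0.94 ± 1.04 on the log2 scale (adjusted p = 0.735 and 0.687). Control replicate 1 alone had 1 count of Fgf1 where the other libraries had 66 to 187. Of the intracellular FGF homologues, which bind sodium channels and not FGF receptors, Fgf14 had 282 to 446 against 553 to 970 counts without overlap (log2 fold change 0.88 ± 0.27, adjusted p = 0.0727), and Fgf11 had -0.53 ± 0.35 (adjusted p = 0.453). Fgf14 passed the adjusted p with DESeq2 (0.0311), without ablated replicate 1 (0.0494) and with scaling by library totals only (0.0338).

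The remaining 7 ligands were near the limit of detection. Fgf13 reached 36 counts in control replicate 3 and 24 in ablated replicate 1, Fgf5 had 24 counts in control replicate 3 and 0 elsewhere, and Fgf17 had 22 in control replicate 2 and at most 3 elsewhere. Fgf3 had 12 counts in control replicate 2 and 0 elsewhere, Fgf22 had 0 to 14, and the endocrine Fgf23 and Fgf15 had at most 9 and 1. The binding proteins, which release FGFs from heparan sulfate, were scarce as well. Fgfbp1 gave counts of 31, 8 and 14 in control keratocytes and of 32, 0 and 0 in ablated keratocytes (log2 fold change -0.84 ± 1.65, adjusted p = 0.845), and Fgfbp3 had 0 to 18.

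Receptor transcripts differed in makeup. Fgfr4 was lower in the ablated keratocytes, Fgfr1 remained the leading receptor, and the order of Fgfr4 and Fgfr2 was opposite in the groups. Gene totals do not separate the IIIb and IIIc splice forms, which differ in the ligands they bind. Fgfr4 (Entrez 14186) gave counts of 1038, 774 and 926 in control keratocytes and of 169, 217 and 229 in ablated keratocytes. All ablated libraries lay far below the controls, with little spread in either group. Fgfr4 fell from 43.0 ± 4.05 to 8.55 ± 1.16 CPM (log2 fold change -2.33 ± 0.24, edgeR adjusted p = 7.26e-05), and it passed the adjusted p under all 16 alternatives.

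Fgfr1 (Entrez 14182), the receptor typical of mesenchymal cells, gave counts of 7200, 4591 and 6155 in control keratocytes and of 4748, 4976 and 3836 in ablated keratocytes. After scaling it was at 280 ± 45.5 against 189 ± 30.6 CPM, and the groups did not overlap in CPM but did in counts and in TPM. The log2 fold change was -0.57 ± 0.17 (adjusted p = 0.0604, edgeR). Fgfr1 passed the adjusted p with DESeq2 (0.00928), with upper quartile scaling (0.0422) and with no low-count filter (0.0444), and not under the other 13 alternatives. Fgfr2 (Entrez 14183) gave counts of 368, 371 and 439 in control keratocytes and of 584, 906 and 579 in ablated keratocytes. Every ablated value was above every control value, with replicate 2 the highest. Its log2 fold change was 0.64 ± 0.27 (adjusted p = 0.191) with a 95% interval from 0.06 to 1.22. Fgfr3 (Entrez 14184) gave counts of 0, 0 and 1 in control keratocytes and of 72, 1 and 100 in ablated keratocytes. Ablated replicate 2 thus stood with the controls, and no fold is given. Fgfr3 is not among the 33 genes, and no test of it is given.

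Per length, the controls held 121 ± 19.4 TPM of Fgfr1, 29.7 ± 2.66 of Fgfr4, 7.65 ± 0.592 of Fgfr2 and 0.00667 ± 0.0115 of Fgfr3, each step larger than the spread. The ablated libraries held 95.3 ± 19.3 TPM of Fgfr1, 14.2 ± 5.12 of Fgfr2, 6.85 ± 1.04 of Fgfr4 and 1.39 ± 1.2 of Fgfr3. The ratio of Fgfr4 to Fgfr2 TPM was 4.70, 3.51 and 3.55 in controls against 0.488, 0.389 and 0.656 in ablated libraries. Fgfr4 thus exceeded Fgfr2 in each control library and lay below it in each ablated library (exact permutation p = 0.1). Of the summed receptor TPM, Fgfr4 made up 18.8 ± 1.08% in controls against 5.95 ± 1.36% in ablated libraries, and Fgfr2 4.91 ± 0.961% and 11.9 ± 2.28% (exact p = 0.1 each). The share of Fgfr1 was 76.3 ± 1.94% and 80.9 ± 2.62%, a difference of 4.59 percentage points (exact p = 0.1). The summed level of the 4 receptors was 159 ± 21.4 and 118 ± 22.8 TPM (exact p = 0.2). These are among 15 sums, shares and ratios compared, for which every raw exact p of 0.1 became 0.125 after Benjamini-Hochberg adjustment.

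**Figure D2:**
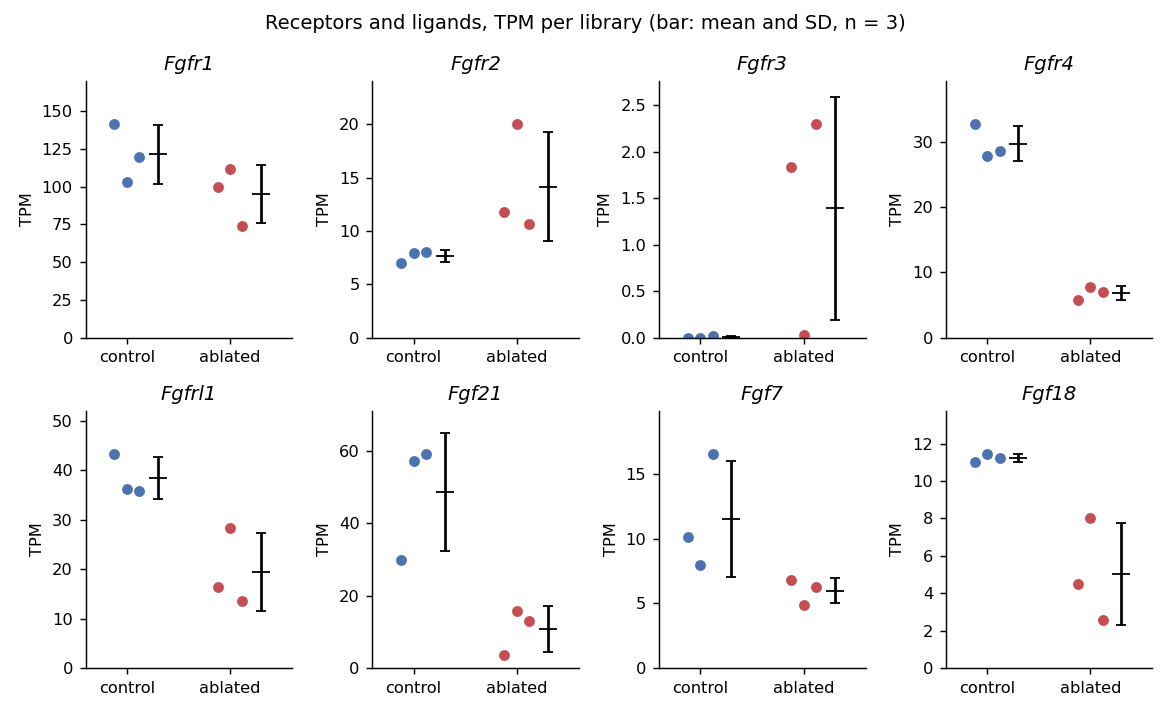
TPM of the receptors, the decoy receptor Fgfrl1 and the ligands Fgf21, Fgf7 and Fgf18 in each library (y axes, linear and starting at 0; blue points control, red points Ptch1-ablated, bars the mean and SD of 3 libraries). Fgfr4 lies at 27.8 to 32.8 TPM in the controls and 5.73 to 7.80 TPM in the ablated libraries, whereas the Fgfr1 groups overlap.

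**Figure D3:**
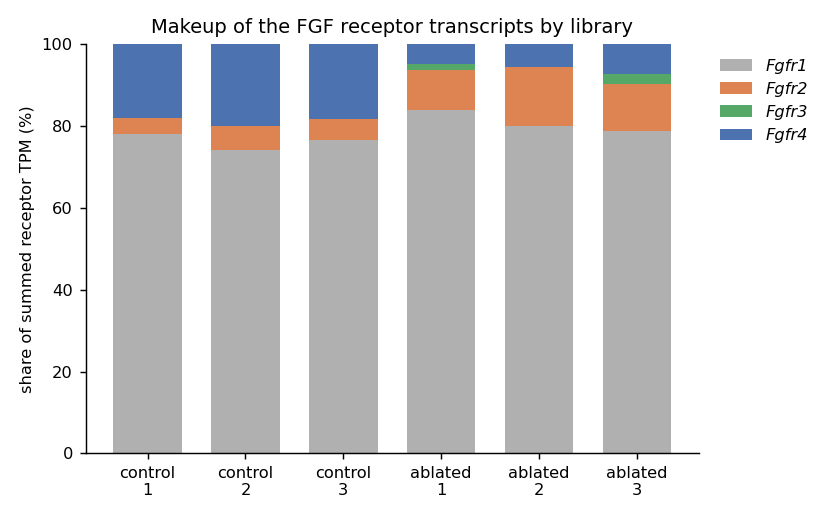
Share of each FGF receptor in the summed receptor TPM of each library (y axis, percent; 1 stacked bar per library). Fgfr1 fills 74.2% to 83.8% of every bar, and Fgfr4 fills 18.1% to 20.1% of the control bars and 4.81% to 7.45% of the ablated ones.

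Fgfrl1 (Entrez 116701) encodes an FGF receptor that lacks the kinase domain and is known as a decoy. It gave counts of 1139, 799 and 939 in control keratocytes and of 397, 624 and 354 in ablated keratocytes. The groups did not overlap, and ablated replicate 2 lay closest to the controls. Fgfrl1 fell from 45.1 ± 6.19 to 19.2 ± 6.45 CPM (log2 fold change -1.23 ± 0.27, adjusted p = 0.0129, edgeR). The call was lost without ablated replicate 1 (adjusted p = 0.0603) and without ablated replicate 3 (0.0641). In TPM the ratio of Fgfrl1 to the summed receptors was 0.244 ± 0.0165 in the controls and 0.162 ± 0.0364 in the ablated libraries (exact permutation p = 0.1).

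The largest difference of the set was in an adaptor. Gab1 (Entrez 14388), which docks Grb2, Shp2 and PI3 kinase at activated receptors, gave expected counts of 1764.10, 1355.01 and 1551.26 in control keratocytes. In ablated keratocytes they were 14376.10, 12121.60 and 13133.70. The spread within each group was small beside the gap between them. Gab1 rose from 73.4 ± 6.77 to 552 ± 53.0 CPM (log2 fold change 2.91 ± 0.14, edgeR adjusted p = 2.39e-07), or 7.53-fold. Across the 16 alternatives the log2 fold change of Gab1 stayed between 2.83 and 3.28. Gab1 is also known to act downstream of other receptors, among them those for HGF and EGF.

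Gab2 (Entrez 14389), a second docking protein of the same family, gave counts of 419, 295 and 446 in control keratocytes and of 996, 1483 and 1104 in ablated keratocytes. No ablated value came near the controls, and ablated replicate 2 was the highest. It rose from 18.1 ± 2.23 to 50.0 ± 11.3 CPM (log2 fold change 1.47 ± 0.24, adjusted p = 0.00207, edgeR). The ratio of Gab1 to Gab2 TPM was 4.34, 5.27 and 4.35 in controls against 18.6, 10.4 and 15.1 in ablated libraries (exact permutation p = 0.1). Gab1 went from 28.8 ± 1.11 to 282 ± 27.6 TPM, which in the ablated libraries was above the 95.3 ± 19.3 TPM of Fgfr1 and the 180 ± 5.11 TPM of Dusp6.

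The other adaptors did not pass the test. Frs2, the docking protein phosphorylated directly by FGF receptors, gave counts of 551 to 1319 in control keratocytes and of 1126 to 1496 in ablated keratocytes (log2 fold change 0.34 ± 0.26, adjusted p = 0.519). Its relative Frs3 had 72, 63 and 60 counts against 20, 0 and 80, a wide spread that left a log2 fold change of -1.18 ± 1.22 (adjusted p = 0.666). Grb2, the SH2 and SH3 adaptor that brings Sos to the membrane, was at -0.11 ± 0.29 (adjusted p = 0.892), with a 95% interval from -0.76 to 0.53. The sign of the Grb2 value depended on the scaling and on control replicate 1.

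The Etv factors, the transcription factors most closely tied to FGF and ERK activity, did not pass the test in either direction. Etv1 gave counts of 756 to 956 in control keratocytes and of 661 to 790 in ablated keratocytes (log2 fold change -0.41 ± 0.21, adjusted p = 0.299, edgeR), with groups that did not overlap in CPM. Etv5, the most abundant of them in TPM (43.0 ± 5.95 in controls), had 1341 to 1997 against 1235 to 1985 counts (-0.13 ± 0.21, adjusted p = 0.811, 95% interval -0.60 to 0.34). Etv4 was scarce and variable, at 35 to 173 against 65 to 132 counts (-0.46 ± 0.63, adjusted p = 0.763). The count past the adjusted p was 0 of 3 with edgeR (8.48% of all genes tested), 0 of 3 at an unadjusted p under 0.05 (20.6%) and 0 of 3 with DESeq2 (12.5%), and at these shares 3 genes are too few to set the Etv factors apart. The sign of the Etv5 value turned with scaling by library totals, in TPM and without ablated replicate 3 (log2 fold change 0.067). Its interval leaves room for a fall of up to 0.60 or a rise of up to 0.34 on the log2 scale.

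The feedback regulators were uneven, with Spry1 and Dusp6 higher and the remaining 9 with enough counts not past the adjusted p. Spry1 (Entrez 24063), an inducible inhibitor of receptor tyrosine kinase signaling, gave counts of 249, 217 and 301 in control keratocytes and of 657, 665 and 792 in ablated keratocytes. The groups were far apart, with similar values inside each. Spry1 rose from 12.01 ± 1.02 to 29.4 ± 2.17 CPM (log2 fold change 1.29 ± 0.25, edgeR adjusted p = 0.00578), and it passed the adjusted p in all 16 alternatives. Its relatives, inhibitors of the same kind, did not pass. Spry2 had 501 to 635 against 469 to 656 counts (log2 fold change -0.20 ± 0.25, adjusted p = 0.725) and Spry4 969 to 2051 against 1951 to 2217 counts (0.34 ± 0.23, adjusted p = 0.460). Spry3 had 24 counts in control replicate 3, 25 in ablated replicate 3 and 0 elsewhere. Spry1 made up 17.5 ± 1.48% of the summed Sprouty TPM in the controls and 32.7 ± 2.71% in the ablated libraries (exact permutation p = 0.1).

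Dusp6 (Entrez 67603), the cytoplasmic phosphatase that inactivates ERK, gave counts of 3271, 2677 and 3204 in control keratocytes and of 4799, 4527 and 4998 in ablated keratocytes. Each ablated value exceeded each control value, and the spread was among the smallest of the set. Dusp6 rose from 144 ± 5.52 to 199 ± 6.33 CPM (log2 fold change 0.47 ± 0.13, edgeR adjusted p = 0.0499), under the 2-fold threshold. The adjusted p lay at its limit and rose above 0.05 in 11 of the 16 alternatives, with a range from 0.00375 to 0.178. All 16 kept a positive log2 fold change, between 0.43 and 0.68. The nuclear ERK phosphatases Dusp4 (0.23 ± 0.37, adjusted p = 0.806) and Dusp5 (0.65 ± 1.03, adjusted p = 0.80) and the cytoplasmic Dusp7 (-0.27 ± 0.25, adjusted p = 0.616) gave the log2 fold changes in brackets and did not pass.

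Il17rd gave counts of 411, 573 and 451 in control keratocytes and of 1019, 1108 and 829 in ablated keratocytes. These groups did not overlap, yet the log2 fold change of 0.85 ± 0.26 missed the threshold (adjusted p = 0.0648, edgeR). It passed with DESeq2 (0.0206), without control replicate 2 (0.0421) and with scaling by library totals only (0.0258). The Spred genes, which encode membrane-bound inhibitors of RAS and RAF signaling, had log2 fold changes of 0.35 ± 0.24 for Spred1, 0.49 ± 0.24 for Spred2 and 0.31 ± 0.53 for Spred3 (adjusted p = 0.474, 0.283 and 0.812). Spred2 gave counts of 652 to 710 in control keratocytes and of 845 to 1442 in ablated keratocytes without overlap, but in TPM the groups overlapped at 3.13 to 8.43 against 4.35 to 8.22.

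The summed TPM of the 12 feedback regulators was 234, 234 and 242 in controls against 355, 387 and 338 in ablated libraries (237 ± 4.85 against 360 ± 24.6, exact permutation p = 0.1). Dusp6 made up 47.2 ± 1.64% and 50.0 ± 2.27% of these sums (exact p = 0.2), and without it the sums were 125 ± 5.60 and 180 ± 20.5 TPM. The TPM scale itself was shifted between the groups, since on log2(TPM + 1) the median over all genes tested was 0.19 higher in the ablated libraries. With TPM divided by the TMM factor of each library, the difference in the feedback sum went from 123 to 88.4 and that in the ligand sum from -41.3 to -51.7.

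**Figure D4:**
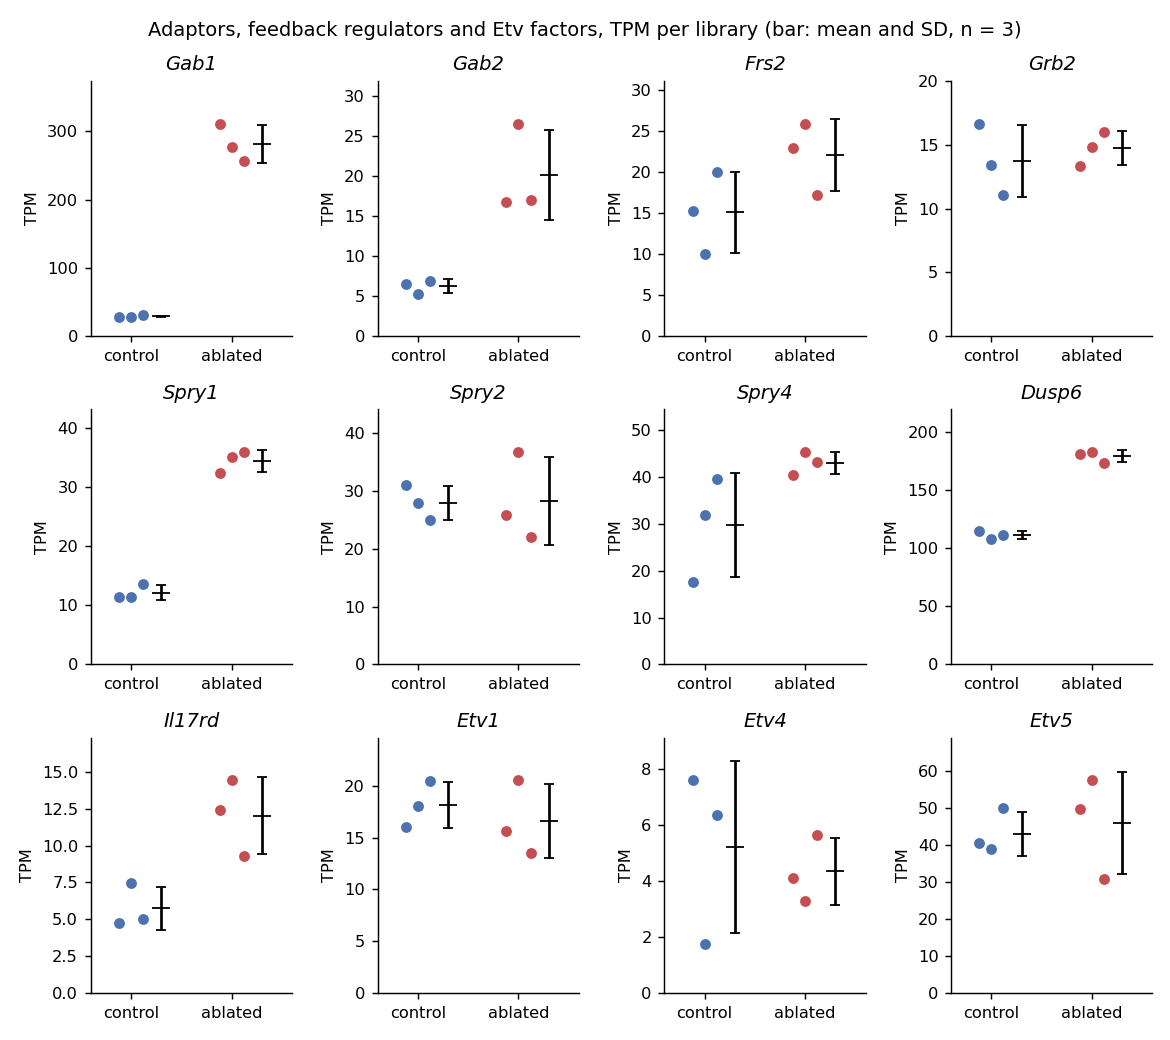
TPM of adaptors, feedback regulators and Etv factors in each library (y axes, linear and starting at 0; blue points control, red points Ptch1-ablated, bars the mean and SD of 3 libraries). Gab1, Gab2, Spry1, Dusp6 and Il17rd separate the groups, whereas Spry2, Frs2, Grb2 and the 3 Etv factors overlap. Spry4 separates them narrowly in TPM (17.7 to 39.5 against 40.5 to 45.3) but not in CPM.

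Other genes of the pathway were compared from lists chosen with earlier results of these data known, so their counts are descriptions beside the backgrounds of 4.68% higher and 3.80% lower given above. Of 19 heparan sulfate carriers, modifying enzymes and co-receptors, 16 were tested, of which 3 were higher and 2 lower at an adjusted p of at most 0.05, with a median log2 fold change of 0.11. Flrt3, a membrane protein that binds FGF receptors, rose more than 2-fold, from 9.58 ± 4.66 to 30.3 ± 6.80 CPM (log2 fold change 1.66 ± 0.37, adjusted p = 0.0148, edgeR). The syndecan Sdc1, a heparan sulfate carrier, fell by 0.97 on the log2 scale (SE 0.15, adjusted p = 0.00133), just under 2-fold. Also under 2-fold, Flrt2 (0.99 ± 0.25, adjusted p = 0.0265) and Nrp1 (0.59 ± 0.14, adjusted p = 0.0173) were higher. Ncam1 was lower (-0.52 ± 0.12, adjusted p = 0.0213, edgeR). These counts were unstable, with 0 higher and 1 lower without control replicate 2, 1 and 1 without ablated replicate 1, 1 and 2 without ablated replicate 2, 2 and 1 without ablated replicate 3, 2 and 2 without control replicate 1, and 3 and 1 without control replicate 3.

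None of 20 genes of the cascade from Shc1 and Sos1 through RAS, RAF and MEK to ERK passed the adjusted p with edgeR, beside 8.48% of all genes tested. The count was 0 at an unadjusted p under 0.05 (20.6% of all genes), 0 with DESeq2 (12.5%) and 0 with limma on log2(TPM + 1) or log2(TPM + 0.1) (11.7% and 10.3%), and the median log2 fold change was 0.045. These are transcript levels and do not measure ERK phosphorylation.

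Of 16 further genes known to respond to ERK, 15 were tested and 5 were higher and 0 lower at an adjusted p of at most 0.05, with a median log2 fold change of 0.54. Those past 2-fold were the growth regulator Myc (log2 fold change 2.14 ± 0.21, adjusted p = 4.24e-05, edgeR), the ephrin receptor Epha4 (1.72 ± 0.32, adjusted p = 0.00487) and Phlda1 (1.58 ± 0.16, adjusted p = 4.91e-05). Myc went from 18.3 ± 2.97 to 80.4 ± 9.50 CPM. Many signals other than FGF are known to regulate Myc. Immediate early genes, which ERK and the stress of tissue dissociation and sorting both induce, were higher as well. Of 10 such genes 8 were higher and 0 lower, and 5 were higher without control replicate 2. Past 2-fold were the AP-1 gene Jun (1.45 ± 0.13, adjusted p = 2.17e-05), its partner Fosb (1.18 ± 0.13, adjusted p = 0.000107) and the nuclear receptor Nr4a1 (1.15 ± 0.14, adjusted p = 0.000183). The summed TPM of the 10 genes was 8344 to 9793 in controls against 15522 to 17635 in ablated libraries. This sum moved with the groups in the same way as Spry1, Dusp6 and the ERK-responsive genes, and its part in their differences was not tested.

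**Figure D5:**
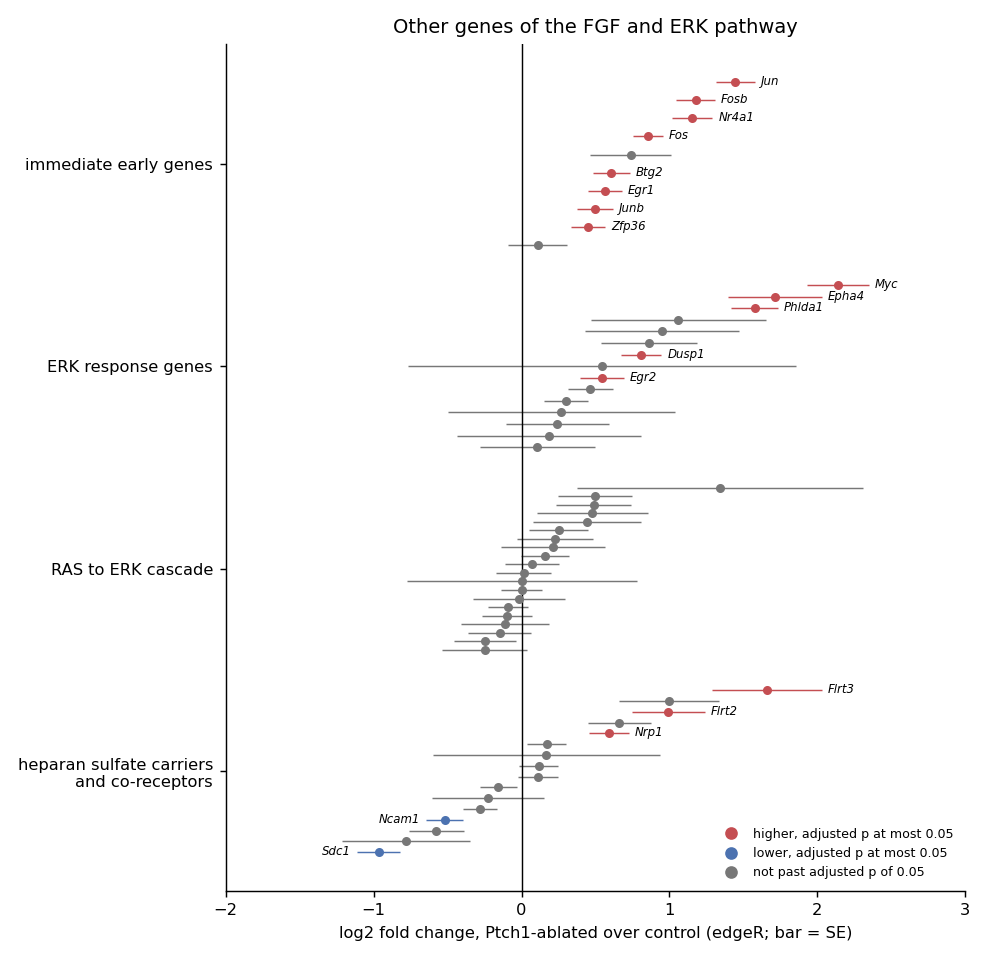
Log2 fold change of the tested genes of the 4 pathway lists, Ptch1-ablated over control (x axis, edgeR estimate, points, with bars of 1 SE), sorted within each list on the y axis; genes past the adjusted p are coloured and named. The 20 genes of the RAS to ERK cascade lie around 0 with a median of 0.045, whereas the points of the 10 immediate early genes all lie above 0.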

How the data were processed

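Bulk RNA-seq libraries of sorted corneal keratocytes, 3 control and 3 Ptch1-ablated, were grouped and numbered by their sample titles. The labels name Trizol for the RNA and a TruSeq kit for the libraries, whereas the study's methods name ribosomal RNA depletion and a BGISEQ platform, which was not settled here. The submitters' processing notes name Bowtie2 (version 2.2.5), RSEM (version 1.2.12) and the mm9 build, and strandedness is not given in the sources used here, so reads of overlapping, antisense or near-identical genes are uncertain. The authors deposited RSEM expected counts per gene, not normalized, beside TPM and FPKM values scaled by the authors for gene length and library. Non-whole values made up 18.6% of the expected counts (33 of the 258 values of the FGF genes), because RSEM divides reads that match several genes. The deposited group averages were not used.

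Expected counts were rounded and genes kept by edgeR's filterByExpr (13888 of 17606), which kept the same 33 FGF genes as a minimum of 10 counts in 3 libraries. Libraries were scaled by TMM and compared with edgeR's quasi-likelihood test (two-sided, no covariates, Benjamini-Hochberg adjustment over all genes tested). The SE was derived from the log2 fold change and its F statistic, and 95% intervals used the test's total degrees of freedom. Sums, shares and ratios of TPM were compared by exact permutation of the 6 libraries (smallest p 0.1). FPKM entered only as an alternative for those sums. The test was checked on simulated data drawn from the real means and totals. Named with values in every library were the FGF genes past the adjusted p, the receptors and Fgfrl1. Of each other list the genes called at 2-fold, at most 4, were named with their log2 fold change and adjusted p. Values in every library of Il17rd, Fgfbp1 and Frs3, and Klb, Sdc1, Flrt2, Nrp1, Ncam1 and the marker genes, were given in addition, after their values were seen. The FGF genes, the other gene lists, the motifs and the tests were chosen with earlier results of these data known.

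Alternatives comprised another test (DESeq2), other scalings (upper quartile or RLE), the 10-count filter or none, each library left out, a block for replicate number, TPM in limma with a pseudocount of 1 or 0.1, no fold minimum, and for sums FPKM and TPM divided by TMM factors. Scaling by library totals only, leaving out control replicate 1 and ablated replicate 2 together, and sums restricted to secreted ligands, without Fgf21 or without Dusp6 were chosen after seeing the data. Software was edgeR 4.0.16, DESeq2 1.42.0 and limma 3.58.1 in R 4.3.3, with pandas 2.3.3 and matplotlib 3.10.9 in Python 3.11.15.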

Additional observations from a re-analysis of the deposited data

How the results depend on the processing

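With 3 libraries a group, moderate changes of scarce genes such as Fgf1, Fgf9, Frs3 and Dusp5 were not detectable. Gab1, Gab2, Spry1 and Fgfr4 stayed past the adjusted p in 16 of 16 alternatives, Fgf21 in 15 and Fgfrl1 in 14. Over the log2 fold changes of the 33 FGF genes under all alternatives, 492 values kept their direction and side of the adjusted p, 14 moved above 0.05 (11 of them Dusp6), 9 moved below it and 13 changed sign. Scaling by library totals only gave 5 genes called higher (Fgf14 and Il17rd added) and fits that kept more low-count genes than the 33 could add Fgfr3, from which nothing is read. Leaving out 1 library gave, over the 33 genes, 3 to 4 called higher, 2 to 3 lower and 5 to 6 past the adjusted p. Over the same 33 genes the median log2 fold change stayed above 0, from 0.040 without ablated replicate 2 to 0.40 with library totals only. Over all FGF genes each fit kept, which adds low-count genes, it was -0.11 with no low-count filter (43 genes), 0.084 without control replicate 1 and ablated replicate 2 (36 genes), and -0.13 to 0.19 with 1 library left out, lowest without control replicate 2 (37 genes). The median over all genes tested was itself 0.17 with library totals only, 0.19 on log2(TPM + 1) and 0.22 on log2(TPM + 0.1). On log2(TPM + 1) the number of all genes called higher was 768, against 467 with edgeR (lower 283 against 296), and it was 633 with 234 lower for library totals only.

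Signs turned only for FGF genes that never passed the test, and the cause was not tested. Without control replicate 1 and ablated replicate 2 the log2 fold change was 0.39 for Fgfbp1, 0.13 for Etv4, -0.089 for Dusp5, -0.22 for Spred3 and 0.099 for Grb2. Grb2 was 0.11 and 0.12 with limma on log2(TPM + 1) and log2(TPM + 0.1), 0.050 with library totals only, and -0.26 to 0.066 with 1 library left out. Etv5 was 0.053 with limma on both TPM scales, 0.043 with library totals only, and -0.27 to 0.067 with 1 library left out.

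The replicate numbers gave no sign of pairing. Deviations from the group means of same-numbered libraries had correlations across genes of -0.046, -0.049 and 0.039, and no library correlated above 0.1 with its own number. Control replicate 1 and ablated replicate 2, which the second principal component set apart, correlated at only 0.066. Such correlations therefore cannot exclude a shared origin or handling of same-numbered samples. With the replicate number as a block there were 3 genes called higher, 3 lower and 6 past the adjusted p, Dusp6 being lost (adjusted p = 0.0941), with a median log2 fold change of 0.20, and 395 of all genes were called higher and 268 lower.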
